A study of Rattus norvegicus with 24 samples.

Results

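The genes RT1-CE1 to RT1-CE8 lie in the RT1-C/E region of the rat MHC and code for class I heavy chains or relics of them. They were taken as the probes that the array files, or the study's list of MHC probes, assign to RT1-CE with a number from 1 to 8, which gave 8 genes and 12 probes of 7249 genes and 8453 probes. RT1-CE8 had 5 probes and each of the other 7 genes had 1. The RefSeq table lists RT1-CE1 to RT1-CE5 and RT1-CE7 as protein coding, RT1-CE6 as a long non-coding RNA, and RT1-CE8 as a pseudogene named RT1-CE8-ps1. It also gives RT1-CE7 as an older name of RT1-CE5 and RT1-CE12 as one of RT1-CE1, so that names in the files and in RefSeq may not always mean the same gene. The files list no transcript for the RT1-CE8 probes, which were tied to that gene by name alone.

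Class I heavy chains pair with beta-2-microglobulin, take up peptides in the endoplasmic reticulum and show them at the cell surface to CD8 T cells. The classical class Ia molecule of the rat is encoded by RT1-A, and the molecules of the C/E region are termed class Ib. Several of them are ligands of Ly49 and other receptors by which NK cells sense the MHC of a partner cell. Interferon gamma and NF-kappaB raise the transcription of class I genes in many cell types.

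The series compared skin explants of male BN rats (MHC haplotype RT1n) aged 15 weeks. Explants of each of 12 rats were kept for 3 days with lymphocytes that had passed through a 7-day mixed lymphocyte reaction, a culture of responder splenocytes with irradiated BN splenocytes. In the syngeneic group these lymphocytes came from BN rats, and in the allogeneic group from PVG rats (haplotype RT1c), an ex vivo model of the graft-versus-host reaction. Both RNAs of a rat were hybridised together on 2 two-color arrays, 1 with the allogeneic sample in Cy5 and 1 with the dyes exchanged. Every explant was of BN skin. Lymphocytes that had not entered or stuck to it were removed by washing before it was frozen, and any left in the allogeneic explants carried another MHC haplotype than the skin. The study based its set of MHC probes on the annotated BN sequence. By their names, the RT1-CE8 probes were custom designs, while those of RT1-CE1 to RT1-CE7 came from the Agilent database. In such bulk RNA, fewer cells of a type and less RNA per cell cannot be told apart.

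All values below are log2 ratios of the allogeneic over the syngeneic sample as the labels assign the dyes. With these assignments the C/E genes had lower signals in the allogeneic samples, which is the opposite of the direction in which the study describes RT1-CE2, RT1-CE3, RT1-CE5 and RT1-CE8. The reversal was not limited to them. Psmb8, Ubd, Aif1, Ly49i9 and Ly49si1, given below as lower, are described by the study as up-regulated. For RT1-CE3 and these genes the study also reports higher levels by quantitative PCR, in a part of the same samples. For RT1-CE10, a further C/E gene with a mean of -1.75 here, it reports higher levels on the arrays but slightly lower ones by quantitative PCR. With the samples exchanged the sign of every ratio of allogeneic over syngeneic would turn, and the dye orientations would change places.

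The probes were 60 bases long, and several of them were alike. A run of 13 bases, in capitals, was common to probes of RT1-CE2, RT1-CE3, RT1-CE4 and RT1-CE8. They are shown because the values of such probes may hold signal of more than 1 gene.
RT1-CE2: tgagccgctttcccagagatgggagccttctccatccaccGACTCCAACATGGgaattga
RT1-CE3: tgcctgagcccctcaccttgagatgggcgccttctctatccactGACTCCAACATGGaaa
RT1-CE4: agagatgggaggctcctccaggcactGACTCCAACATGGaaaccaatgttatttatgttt
RT1-CE8 probe 5: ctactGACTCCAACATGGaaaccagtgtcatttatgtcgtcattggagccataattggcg

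The probes of RT1-CE2 and RT1-CE3 matched at 47 of 56 aligned bases and those of RT1-CE3 and RT1-CE4 at 35 of 42. The longest run without a mismatch was 20 bases between RT1-CE3 and RT1-CE4, and 22 bases between RT1-CE4 and 3 of the RT1-CE8 probes. The 5 RT1-CE8 probes were tiles of 1 stretch of 74 bases, and the 2 that lay farthest apart still had 46 bases in common. They are repeated readings of the same target and not 5 independent measurements.

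Likeness also reached beyond these 8 genes. The probe of RT1-CE1 and 1 probe of RT1-CE11 matched at 51 of 57 aligned bases, and RT1-CE8 probe 1 and the probe of the class Ia gene RT1-A2 at 47 of 52. Both pairs are printed because the members of each pair also gave almost equal ratios, and capitals mark the bases that differ within the aligned stretch.
RT1-CE1: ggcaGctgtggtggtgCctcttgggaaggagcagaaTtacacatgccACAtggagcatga
RT1-CE11: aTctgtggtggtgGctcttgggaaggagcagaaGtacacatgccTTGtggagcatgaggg
RT1-CE8 probe 1: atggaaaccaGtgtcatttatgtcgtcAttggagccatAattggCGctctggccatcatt
RT1-A2: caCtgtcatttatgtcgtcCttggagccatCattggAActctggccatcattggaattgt

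In the files the RT1-CE1 probe was also assigned to transcripts of RT1-CE12 and RT1-CE15, and the RT1-CE4 probe to one of RT1-CE15. The probes of RT1-CE5 and RT1-CE7 had no run of 15 or more bases in common with another probe of the 8 genes. RT1-CE5 had none with any named class I probe on the array. RT1-CE7 had 1 of 15 bases with a probe of RT1-T18, which it matched at 36 of 41 aligned bases. That RT1-T18 probe was also called lower (-0.33, adjusted p 0.0118), while a further one was not called (-0.05, adjusted p 0.56, both limma). RT1-CE5 and RT1-CE7 are shown as the 2 protein coding members with the shortest runs in common with other named class I probes.
RT1-CE5: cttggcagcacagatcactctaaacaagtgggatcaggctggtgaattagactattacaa
RT1-CE7: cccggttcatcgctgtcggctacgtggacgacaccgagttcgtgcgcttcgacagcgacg

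The files place these probes on chromosome 20 in the rn3 build. RT1-CE7 was placed at chr20:3410654-3410713 on the plus strand. The others were on the minus strand, with RT1-CE5 at chr20:3512497-3512556, RT1-CE4 at chr20:3537389-3537575, RT1-CE3 at chr20:3553165-3553351, RT1-CE2 at chr20:3577638-3577791 and RT1-CE1 at chr20:3595952-3596011. The listed spans of RT1-CE2, RT1-CE3 and RT1-CE4 were 154, 187 and 187 bases for 60 bases of probe, so that part of each span is not in the probe. The probes of RT1-CE6 and RT1-CE8 are listed as unmapped.

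The arrays were made on 3 slides, each with 4 rats. All 12 probes were well above background in both channels on all 24 arrays, and none was saturated. Array 1 of rat 10, which carried the allogeneic sample in Cy5, was far brighter than the rest, with a median Cy5 intensity of 25642 against 269 to 415 on the other 23 arrays. Over all probes, the ratios of rat 8 correlated with those of the other rats only at 0.0998 to 0.241, although its own 2 arrays correlated at 0.944. Among the other 11 rats the lowest correlation between 2 rats was 0.285. Both arrays of the same rat correlated at only 0.133 in rat 10, 0.201 in rat 3, 0.264 in rat 6 and 0.304 in rat 2. In rats 1, 4, 5, 7, 9, 11 and 12 they correlated at 0.617 to 0.796. The calls of the 8 genes are given without rats 8 or 10 where either moved them.

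RT1-CE3 showed the largest mean decrease of the 8 genes. Its ratio was lowest in rat 8 (-0.87), had a median of -0.40 and was highest in rat 1 (-0.16). It was negative in 12 of 12 rats, and none reached 0. The mean was -0.45 ± 0.22 (SD, n = 12), a 0.731-fold level in the allogeneic samples, with a 95% interval of -0.58 to -0.32 and an adjusted p of 0.000391 by limma over all genes. Without rat 8 the mean was -0.41, with an adjusted p of 0.000207.

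RT1-CE8 came next. Its ratio, the mean of 5 probes, ran from -0.68 in rat 8 over a median of -0.36 to -0.14 in rat 3, and was below 0 in all 12 rats. The mean was -0.38 ± 0.17 (SD, n = 12), a 0.771-fold level, with an interval of -0.48 to -0.27 and an adjusted p of 0.000273 (limma). Each of the 5 overlapping probes was called, with means between -0.42 and -0.35, and each was lower in 12 of 12 rats. Of all probes on the array, 8.48% were called lower.

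RT1-CE2, the third gene that was lower in every rat, ran from -0.58 in rat 10 over a median of -0.24 to -0.06 in rat 6. Its mean was -0.26 ± 0.15 (SD, n = 12) with an adjusted p of 0.00113 (limma). Rat 10 is the rat with the very bright array, and without it the mean was -0.23 with an adjusted p of 0.00104. A ratio below 0 in all 12 rats was found for 3 of the 8 genes and for 3.23% of all genes on the array.

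RT1-CE1 had the narrowest spread over rats, from -0.41 in rat 10 over a median of -0.22 to 0.03 in rat 1, and lay below 0 in 10 of 12 rats. Its mean was -0.20 ± 0.13 (SD, n = 12), with an adjusted p of 0.00342 (limma). RT1-CE4 was likewise lower in 10 of 12 rats, with a lowest value of -0.68 in rat 8, a median of -0.22 and a highest value of 0.0065 in rat 6. Its mean of -0.22 ± 0.20 (SD, n = 12) was called with an adjusted p of 0.0134 (limma). Without rat 8, whose value lay well below the next lowest of -0.37, the mean of RT1-CE4 was -0.18 and its adjusted p 0.00539.

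RT1-CE5 and RT1-CE7 were nearer to the threshold. RT1-CE5 ran from -0.84 in rat 8 over a median of -0.24 to 0.08 in rat 6, and 3 of 12 rats lay above 0. Its mean was -0.27 ± 0.27 (SD, n = 12), with an adjusted p of 0.0257 (limma). Leaving out any of rats 2, 7, 9 and 11 ended this call, with adjusted p-values of 0.0523 to 0.056. RT1-CE7 ran from -0.82 in rat 8 over a median of -0.22 to 0.14 in rat 1, and 2 of 12 rats lay above 0. Its mean was -0.23 ± 0.25 (SD, n = 12), with an adjusted p of 0.034 (limma). The same held for any of rats 2, 3, 5, 7, 9, 10, 11 and 12 here, with adjusted p-values of 0.0526 to 0.0701. Without rat 8, RT1-CE7 had a mean of -0.18 and an adjusted p of 0.0174.

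RT1-CE6, the non-coding member, was not called. Its ratio ran from -0.48 in rat 9 over a median of -0.10 to 0.35 in rat 8, with 8 of 12 rats below 0. The mean was -0.08 ± 0.28 (SD, n = 12), and the interval of -0.24 to 0.09 includes a decrease of the size seen for RT1-CE4 (adjusted p 0.539, limma). Rat 8 thus had the highest value of the 12 rats for RT1-CE6 and the lowest for RT1-CE3, RT1-CE4, RT1-CE5, RT1-CE7 and RT1-CE8. Without it the mean of RT1-CE6 was -0.12, with an adjusted p of 0.264.

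In all, 7 of the 8 genes were called lower in the allogeneic samples, where 7.56% of all genes on the array were called lower and 8.64% higher. No mean reached a log2 ratio of -1, and the folds of the 7 called genes ran from 0.731 to 0.87. Rats differed in how many of the genes moved. In 8 of 12 rats all 8 ratios were below 0, while rats 1 and 6 had 5 of 8 ratios above 0.

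**Figure D1:**
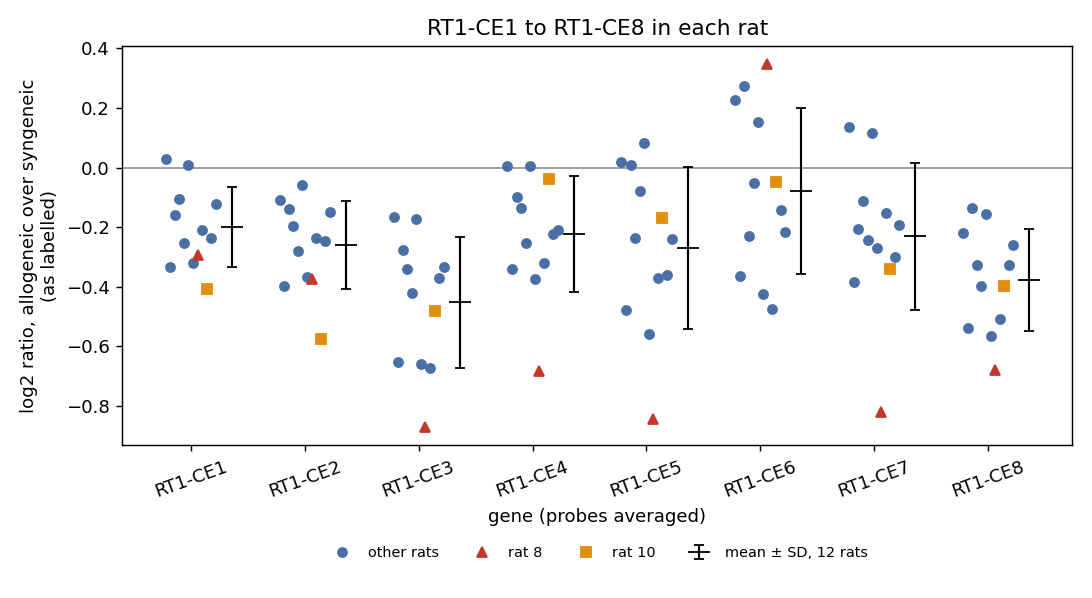
Log2 ratio of the allogeneic over the syngeneic sample, as labelled, for each of 8 genes (x axis) in each of 12 rats (points), with rat 8 as red triangles, rat 10 as orange squares and the mean ± SD at the right of each gene. RT1-CE2, RT1-CE3 and RT1-CE8 lie below 0 in every rat, and rat 8 is lowest for 5 genes but highest, at 0.35, for RT1-CE6.

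Slides held both groups and could be compared. The means of RT1-CE3 were -0.36, -0.53 and -0.47 on slides 1, 2 and 3, and those of RT1-CE8 were -0.30, -0.45 and -0.37. The means of the 7 called genes were negative on each of the 3 slides. RT1-CE6 was at -0.02, 0.0062 and -0.22. Each slide holds 4 rats, and no test was made within a slide.

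The normalized intensity of a channel gives the level of a probe in 1 sample. These levels are compared between samples only for the same gene. For RT1-CE3 the log2 intensity of 11 rats, leaving out rat 10, ran from 12.57 over a median of 12.85 to 13.69 in the syngeneic samples and from 12.33 over 12.5 to 12.82 in the allogeneic samples, so that the 2 ranges overlapped although the ratio was negative in each rat. For RT1-CE8 the same ranges were 12.99 to 14.06 with a median of 13.47, and 12.83 to 13.38 with a median of 13.11. For RT1-CE7 they were 11.6 to 12.77 in the syngeneic and 11.7 to 12.21 in the allogeneic samples.

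Over all 12 rats the SD of the log2 intensity of RT1-CE4 was 0.349 in the syngeneic and 0.198 in the allogeneic samples, and for RT1-CE5 it was 0.407 and 0.252. Without rats 8 and 10 these were 0.161 and 0.0972 for RT1-CE4 and 0.337 and 0.251 for RT1-CE5. The difference between these spreads was not tested. Rat 10 stood apart in level, with log2 intensities of 9.967 and 9.487 for RT1-CE3 where the other 11 rats lay above 12, and of 11 and 10.96 for RT1-CE6 where the highest of the other rats was 9.342.

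**Figure D2:**
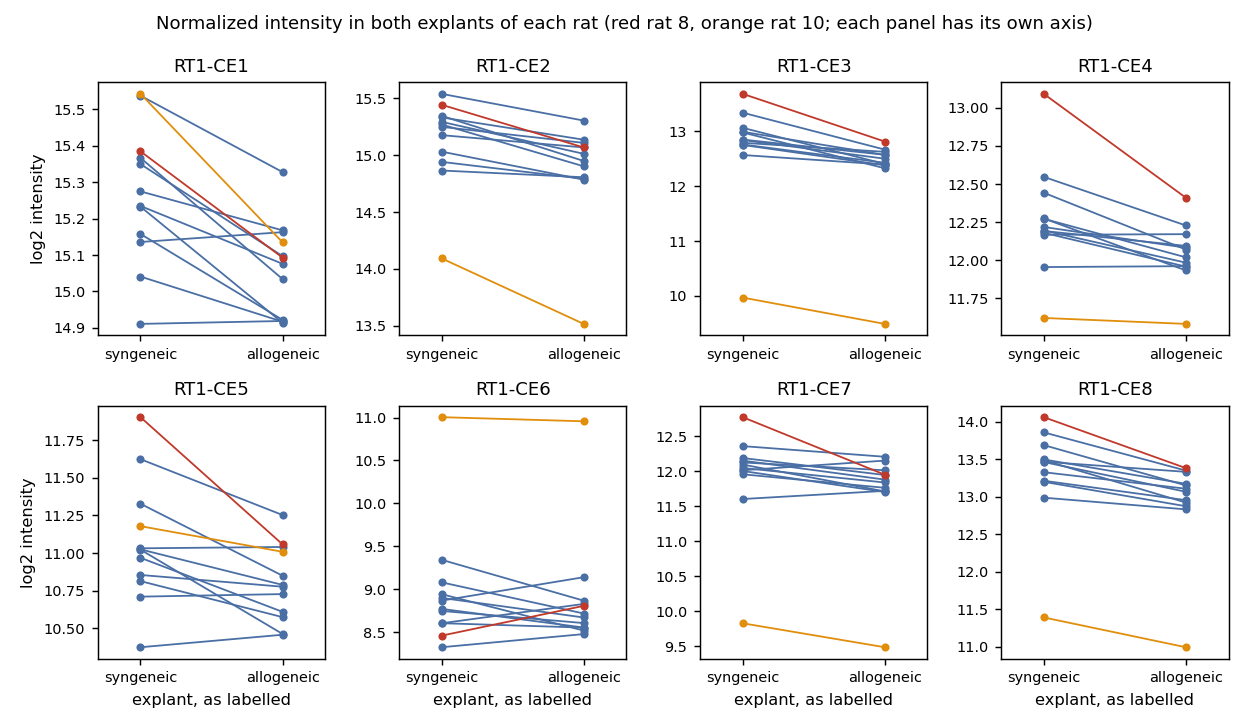
Log2 intensity after loess and Aquantile normalization, mean of both arrays of a rat, in the syngeneic and the allogeneic sample (x axis) for each gene; lines join both samples of a rat, with rat 8 in red and rat 10 in orange. Each panel has its own axis. For RT1-CE3 every line falls, and rat 10 lies near 9.967 and 9.487 while the other rats lie above 12.

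Spots, arrays and rats contributed to the error in different measure. Each probe was spotted 3 times per array. The SD between spots of 1 array was 0.0479 for RT1-CE3 and at most 0.0937 for the 12 probes. The SD between both arrays of a rat, after the mean dye difference was taken out, was 0.116 to 0.252. The SD over rats, taken on the mean of both arrays, was 0.134 for RT1-CE1 and 0.279 for RT1-CE6, and it still holds array error. For RT1-CE1 and RT1-CE2 the SD between arrays, 0.174 and 0.236, was larger than that over rats, 0.134 and 0.147.

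The dye orientation moved all 8 genes. The mean of RT1-CE3 was -0.70 ± 0.24 (SD, n = 12) with the allogeneic sample in Cy5 and -0.21 ± 0.23 with it in Cy3, and RT1-CE8 gave -0.50 ± 0.19 and -0.25 ± 0.19. These 2 genes passed the threshold in each orientation on its own, with adjusted p-values by limma of 3.63e-05 and 0.0263 for RT1-CE3 and of 7.04e-05 and 0.00334 for RT1-CE8. RT1-CE1, RT1-CE2, RT1-CE4 and RT1-CE5 were called from the arrays with the allogeneic sample in Cy5 but not from those with it in Cy3, where their means were -0.08, -0.01, -0.02 and -0.11. RT1-CE7 changed its sign, from -0.63 ± 0.30 with the allogeneic sample in Cy5 to 0.17 ± 0.31 with it in Cy3. RT1-CE6 went from -0.36 ± 0.29, which was called on those arrays alone, to 0.21 ± 0.30.

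The difference between both orientations was tested per gene. It was called for all 8 genes, from -0.23 for RT1-CE1 (adjusted p 0.00674) to -0.80 for RT1-CE7 (adjusted p 4.85e-06, both limma, n = 12), and the ratio was more negative with the allogeneic sample in Cy5 in at least 11 of 12 rats for each gene. Differences in this direction were called for 23.3% of all genes on the array. The sign of this difference depended on the normalization. With median centring in place of loess, which follows the dye bias along the intensity, it was positive for RT1-CE1 to RT1-CE5 and RT1-CE8, for example 0.88 for RT1-CE1 and 0.23 for RT1-CE3, and remained negative for RT1-CE6 (-0.30) and for RT1-CE7, where it was no longer called (-0.16, adjusted p 0.135, limma). A dye effect that is equal in both orientations cancels in the mean of a rat, and the calls above rest on that mean.

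**Figure D3:**
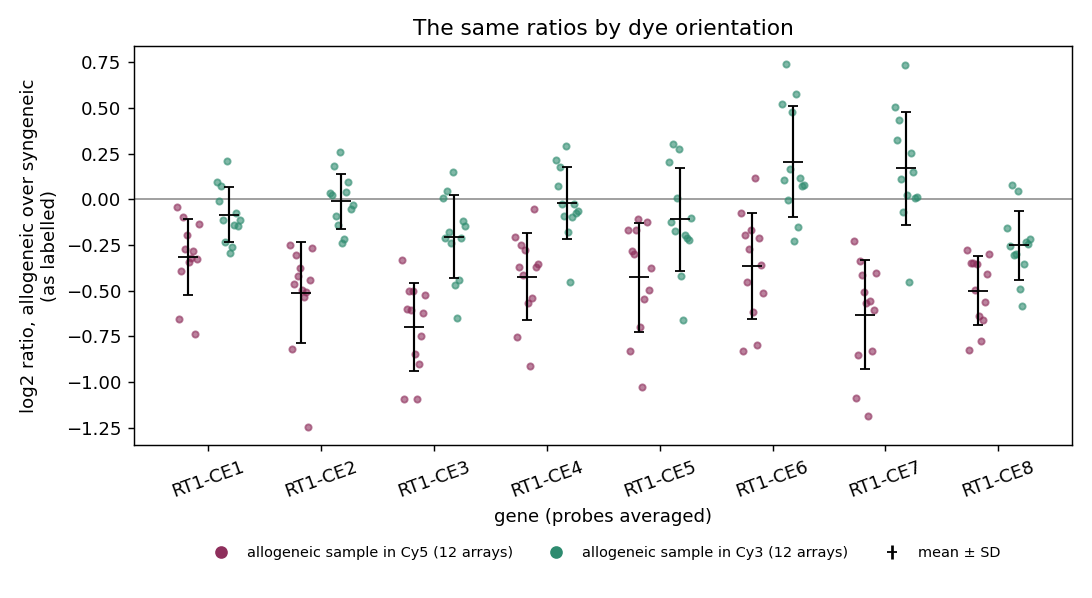
Log2 ratio of the allogeneic over the syngeneic sample by array for each of 8 genes, with the 12 arrays that carried the allogeneic sample in Cy5 in purple, the 12 that carried it in Cy3 in green, and mean ± SD in black. For every gene the purple mean is the lower one, and for RT1-CE6 and RT1-CE7 the green means, 0.21 and 0.17, are above 0.

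To see which of the genes differed in the size of their change, the ratios of 2 genes were subtracted in each rat. The differences were tested by an exact permutation of signs over the 12 rats, two-sided, for all 28 pairs. Each gene but RT1-CE8 was read by 1 probe, so that a difference between genes is also one between probes. Probes of 1 class I gene could differ as much, such as the 4 of RT1-Aw2 with means from -1.12 to -0.12. The part of probe response and cross-hybridisation in these differences was not tested. In 15 pairs the genes differed after adjustment over the 28. RT1-CE3 was lower than each of the other 7 genes. Its differences ran from -0.08 ± 0.07 (SD) against RT1-CE8, with 11 of 12 rats in that direction and an adjusted exact p of 0.0112, to -0.37 ± 0.30 against RT1-CE6, with 12 of 12 rats and an adjusted exact p of 0.00228. RT1-CE8 was lower than RT1-CE1, RT1-CE2, RT1-CE4, RT1-CE5, RT1-CE6 and RT1-CE7, by 0.11 to 0.30 on the log2 scale.

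RT1-CE1, RT1-CE2, RT1-CE4, RT1-CE5 and RT1-CE7 formed a middle group with means of -0.27 to -0.20. Of the 10 pairs among them, 1 differed. RT1-CE2 was lower than RT1-CE1 by 0.06 (95% interval of RT1-CE1 minus RT1-CE2, 0.03 to 0.09, adjusted exact p 0.00456), in 11 of 12 rats. For the other 9 pairs no difference was detected, but the intervals were wide, such as -0.08 to 0.09 for RT1-CE4 minus RT1-CE7 and -0.14 to 0.15 for RT1-CE2 minus RT1-CE5. RT1-CE6 was higher than RT1-CE3, RT1-CE5 and RT1-CE8, and was not shown to differ from the other 4. RT1-CE5 minus RT1-CE6 was -0.19 ± 0.33 (SD), with RT1-CE5 lower in 11 of 12 rats and an adjusted exact p of 0.0171, although its 95% interval of -0.40 to 0.02 includes 0.

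The order of some genes depended on the dye orientation. With the allogeneic sample in Cy5 alone, RT1-CE3 minus RT1-CE8 was -0.20 (adjusted exact p 0.00195), and with it in Cy3 alone it was 0.05 (adjusted exact p 0.0843). RT1-CE1 minus RT1-CE2 was 0.19 (adjusted exact p 0.00195) in the former and turned to -0.07 (adjusted exact p 0.00643) in the latter. RT1-CE3 was lower than RT1-CE1, RT1-CE4, RT1-CE5 and RT1-CE6 in both orientations taken alone, while against RT1-CE2 and RT1-CE7 the adjusted exact p was 0.0746 and 0.33 with the allogeneic sample in Cy5. RT1-CE8 was lower than RT1-CE1, RT1-CE2, RT1-CE4, RT1-CE5, RT1-CE6 and RT1-CE7 with the allogeneic sample in Cy3, but with it in Cy5 only RT1-CE1 of these still differed (0.18, adjusted exact p 0.0182). There RT1-CE2 minus RT1-CE8 (-0.01) and RT1-CE7 minus RT1-CE8 (-0.13) were turned, with adjusted exact p-values of 0.947 and 0.0978.

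**Figure D4:**
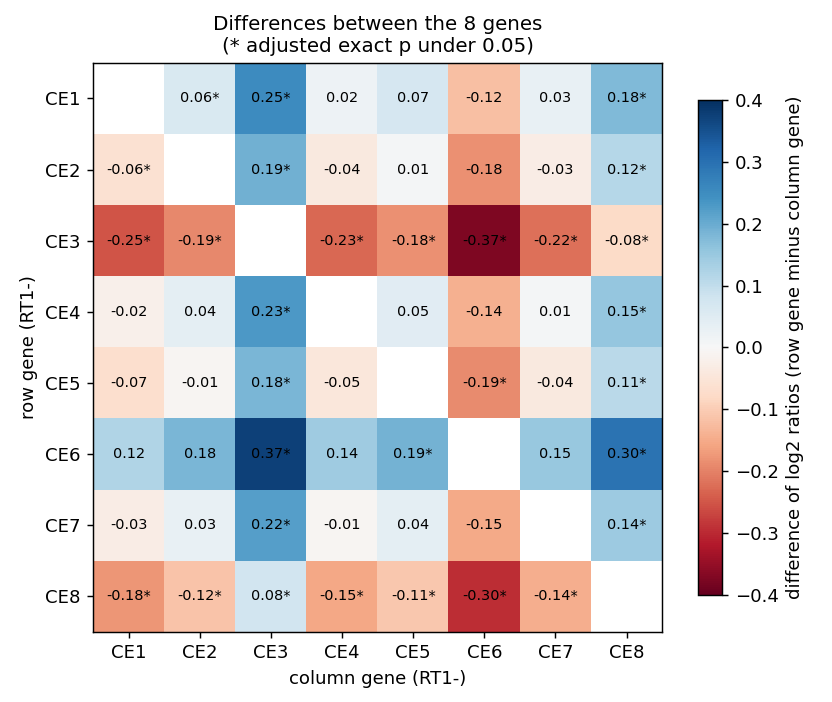
Mean difference of the log2 ratios of 2 genes (row gene minus column gene, 12 rats), in red where the row gene is lower and in blue where it is higher; an asterisk marks an adjusted exact p under 0.05. The row of RT1-CE3 is red and marked against all other 7 genes, from -0.08 against RT1-CE8 to -0.37 against RT1-CE6.

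The ratios of the genes also varied together over the 12 rats. Over 12 rats RT1-CE3 and RT1-CE8 had Pearson's r of 0.965 and Spearman's rho of 0.951, with permutation p-values of 2e-05 and 4e-05 and adjusted values of 0.00028 and 0.00056 over 28 pairs. Without the 2 rats farthest from the median of RT1-CE3, rats 8 and 9, r was 0.947. RT1-CE1 and RT1-CE2 had r of 0.934 (permutation p 1e-05, the smallest that 100000 permutations can give, adjusted 0.00028) and rho of 0.958 (permutation p 2e-05, adjusted 0.00056), and r was 0.949 without rats 1 and 6. RT1-CE4 and RT1-CE5 had r of 0.925 (permutation p 6e-05, adjusted 0.00042) and rho of 0.916 (permutation p 0.00012, adjusted 0.00112), with r of 0.823 without rats 6 and 8.

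Of the 21 pairs that do not include RT1-CE6, 17 passed the adjusted permutation test of r, with r from 0.403 to 0.965 over all 21. Without the 2 farthest rats r ran from 0.218 to 0.949. RT1-CE1 and RT1-CE4 gave the lowest of these, with r of 0.531 (permutation p 0.0732, adjusted 0.103) and rho of 0.608 (permutation p 0.039, adjusted 0.052) in all 12 rats. None of the 7 pairs with RT1-CE6 passed, with r from -0.0623 to 0.362. This rested on rat 8, since without it r with RT1-CE6 was between 0.44 and 0.911. The 8 values of a rat come from the same 2 arrays, and the probes of several genes share sequence. For RT1-CE1 and RT1-CE2 the SD between arrays (0.174 and 0.236) exceeded the SD over rats (0.134 and 0.147). The part of shared array error in these correlations was not tested. Slides hold 4 rats each, too few for a correlation within a slide.

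**Figure D5:**
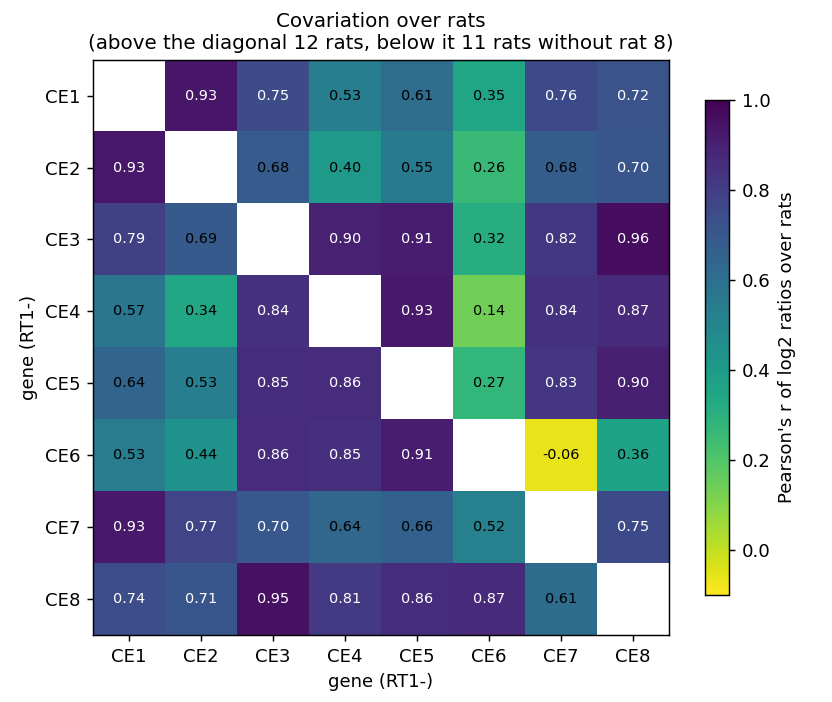
Pearson's r of the log2 ratios of 2 genes over rats, above the diagonal in 12 rats and below it in the 11 rats without rat 8. In the RT1-CE6 column above the diagonal, r is at most 0.35 with the genes to the left of it, and in the RT1-CE6 row below the diagonal it reaches 0.91.

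The genes whose pattern over rats was most like that of RT1-CE3 and RT1-CE8 were other class I genes. The search covered the 5991 genes whose probes all stood well above background in both channels on 12 or more arrays, and the 3 with the highest r over 12 rats were the same for both. RT1-Aw2 had r of 0.959 with RT1-CE3 and 0.979 with RT1-CE8, and its ratio ran from -1.03 over a median of -0.58 to -0.36, with a mean of -0.64 ± 0.21 (SD, n = 12, adjusted p 4.39e-05, limma). RT1-CE9 had r of 0.959 and 0.939 and a mean of -0.28 ± 0.19, and RT1-CE12 had r of 0.934 and 0.927 and a mean of -0.16 ± 0.13. Without rat 8 these values of r were 0.893 to 0.969. The probes averaged for these genes differed in size. The 4 of RT1-Aw2 had means from -1.12 to -0.12, the last not called (adjusted p 0.0678, limma). The 5 of RT1-CE9 ran from -0.38 to -0.13 and the 6 of RT1-CE12 from -0.27 to -0.02.

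A fixed list of other class I heavy chain genes is given for comparison. It leaves out RT1-A3, whose probe was not called (-0.16, adjusted p 0.157, limma), and the RT1-M, N, O and T genes. Probes of the latter differed, such as 1 of RT1-T24-4 at -0.30 (adjusted p 0.000734) and 1 of RT1-M5 at 0.0013 (adjusted p 0.963, both limma). Of RT1-A1, RT1-A2 and RT1-CE9 to RT1-CE16, 8 of 10 were called lower and none higher, with means from -1.75 to -0.03, against 7.56% and 8.64% of all genes. Without rat 8, as without rat 10, 7 of the 10 were called lower. Probes that resembled one of the 8 genes could be set beside it. The RT1-CE11 probe that matched RT1-CE1 at 51 of 57 bases had a mean of -0.19 ± 0.12, where RT1-CE1 had -0.20 ± 0.13. The RT1-A2 probe had -0.41 ± 0.20, where RT1-CE8 probe 1 had -0.42 ± 0.21. A further RT1-CE11 probe matched RT1-CE4 at 47 of 51 bases and RT1-CE8 probe 5 at 44 of 48, and its mean of -0.11 ± 0.14 was not called (adjusted p 0.078, limma). Likeness of sequence was therefore found both with nearly equal and with unequal ratios, and the part of cross-hybridisation in these values was not tested.

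Genes that serve class I molecules were read from a list of 16, of which 12 were on the array. Of these, 5 were called lower and none higher, with a median ratio of -0.14, where 7.56% of all genes were called lower, 8.64% higher, and their median was 0.01. Psmb8, an interferon-inducible proteasome subunit that trims peptides for class I, ran from -0.94 over a median of -0.35 to -0.12, with a mean of -0.42 ± 0.25 (SD, n = 12, adjusted p 0.00127, limma). The related subunits Psmb10 and Psmb9 had means of -0.33 ± 0.29 and -0.19 ± 0.20, and Tap2, a subunit of the peptide transporter, had -0.21 ± 0.20. Its partner Tap1 had a mean of -0.23 ± 0.29 and was not called (adjusted p 0.0697, limma). B2m, the light chain of all class I molecules, was not called either, with a mean of 0.0025 ± 0.55. Its ratio was below 0 in 10 of 12 rats with a median of -0.12, but reached 1.69 in rat 8. Without rat 8 the mean of B2m was -0.15 ± 0.12 (SD, n = 11) and was called lower (adjusted p 0.00833, limma).

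Of 16 genes inducible by interferon gamma, 11 were on the array, of which 3 were called lower and 1 higher, with a median of -0.07, beside 7.56% and 8.64% of all genes. Ubd, a ubiquitin-like protein, had a mean of -1.43 ± 0.65 and Socs1, an inhibitor of cytokine signalling, of -0.35 ± 0.24, and Igtp, an interferon-induced GTPase, was at -0.07 ± 0.05. The chemokine gene Cxcl9 went the other way, with a mean of 0.34 ± 0.38 (SD, n = 12, adjusted p 0.0414, limma), highest in rat 8 at 1.39. Without rat 8 its mean was 0.24 and the call held (adjusted p 0.00557), but without rat 10 it was lost (0.33, adjusted p 0.0724, both limma).

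On the side of the receptors, 5 of 11 genes were called lower and none higher, with a median of -0.09, beside 7.56% and 8.64% of all genes. Cd8b and Cd8a, the chains of the T cell co-receptor for class I, had means of -0.49 ± 0.23 and -0.32 ± 0.22. Ly49i9 and Ly49si1, NK cell receptors of the Ly49 family, had means of -2.28 ± 0.78 and -1.48 ± 0.75, with 12 of 12 rats below 0. The study had already picked these Ly49 genes from the same arrays, so that their calls add no independent support to the count. By the study, it is unclear whether their products bind the class Ib molecules it describes as up-regulated. The gene that the files call Pirb, with the RefSeq symbol Lilrb2, was also called (-0.33 ± 0.23) but was well above background in both channels on only 1 array.

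Some markers of the cells that an explant with added lymphocytes can hold also moved with the groups. Among T cell markers 4 of 8 on the array were called lower, among NK cell markers 3 of 6, and among macrophage markers 3 of 4. None of these was called higher, beside 7.56% of all genes called lower and 8.64% higher. The T cell markers Cd3d (-0.16), Cd3g (-0.40), Cd247 (-0.07) and Cd4 (-0.05) were not called, with adjusted p-values of 0.0925 to 0.328 (limma). Neither were Ncr1, Klrd1 and Prf1 of the NK cell list or Cd14 of the macrophage list. By quantitative PCR the study found the CD3 zeta chain up-regulated in the allogeneic explants. The mean ratio of the list in a rat ran from -1.01 to 0.05 for T cells, from -0.52 to -0.04 for NK cells and from -1.16 to -0.13 for macrophages. The macrophage gene Aif1 had the largest of these changes, with -1.27 ± 0.50. Neither of the 2 B cell markers on the array was called, and their mean ratio in a rat ran from -0.37 to 0.75. The fibroblast gene Col1a2 (0.55 ± 0.40) and the endothelial gene Pecam1 (0.17 ± 0.13) were called higher, both in 11 of 12 rats, and Vwf was not called. No probe carried the name of any of the 9 keratinocyte markers, so that the epidermis was not checked. Cd4 and Klrd1 were well above background in both channels on only 9 and 11 of 24 arrays. The part of the cell makeup in the changes of the RT1-CE genes was not tested.

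The region before the start of 6 of the genes, RT1-CE1 to RT1-CE6, was read from the RefSeq promoters of the GRCr8 build. Both strands were searched for GGNGATTCC, the core of the enhancer A of class I genes to which NF-kappaB binds, and for TTTCNNTTC, the core of an interferon response element. RT1-CE3, RT1-CE4 and RT1-CE5 held both, 1 of each, and RT1-CE1, RT1-CE2 and RT1-CE6 held neither. The first motif was in 0.78% of all 33469 promoters, the second in 8.54% and both in 0.07%. The stretches from the one to the other are shown because they differ between genes that changed, with both motifs in capitals.
RT1-CE3: GGGGATTCCtcatctccccagTTTCACTTC
RT1-CE4: GGGGATTCCccaacttcccagTTTCATTTC
RT1-CE5: GGAGATTCCccatctcccctgTTTCACTTC

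They lie on the minus strand at chr20:3525313-3525342 for RT1-CE3, chr20:3509321-3509350 for RT1-CE4 and chr20:3484228-3484257 for RT1-CE5, all in GRCr8, and begin 184, 194 and 167 bases before the start. RT1-CE1 and RT1-CE2 were called without either motif in this window, and RT1-CE6, which also lacked both, was not called. A match of letters is no measured binding.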

How the data were processed

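Skin explant RNA of 12 rats was measured on 24 two-color arrays, with rat and dye orientation taken from the labels. For every array the authors deposited its scanner file. Its mean intensities and local background intensities were made by Feature Extraction 9.5.1.1 per the file headers, where the methods name an earlier version. The amplification kit in the labels is not the one in the methods. The software's processed intensities, which the authors also deposited, are background-subtracted and dye-normalized. The authors further deposited a series-wide set of log2 ratios, whose 24 columns correlated with the labelled allogeneic over syngeneic ratio at 0.707 to 0.955 and were taken as already turned. Their titles name stimulated against non-stimulated for both dye orientations; the centring is not given in the sources used here (column medians -0.027 to 0.022), and the submitters' processing notes name limma.

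Mean intensities were corrected by normexp (offset 50) and loess within arrays with limma 3.58.1 (R 4.3.3; versions 1.17.8 of data.table and 1.5.0 of statmod were also used), with control and outlier spots left out. Swapped arrays were turned, and spots, probes of a gene and both arrays of a rat were averaged in this order. Genes and probes were tested against 0 by limma over 12 rats and called at an adjusted p under 0.05 (Benjamini-Hochberg over 7249 genes or 8453 probes). Since both RNAs of a rat met on one array, the ratio itself pairs them. Probe names came from the study's probe lists (736), RefSeq accessions (4323) or the files (3394). Levels per channel were taken after Aquantile normalization. The number of arrays limits the precision. The fits were tested on simulated data.

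All 8 genes and their probes were named, the 3 genes most like RT1-CE3 and RT1-CE8 over rats, and list genes when called (at most 4 a list). Chosen after their values were seen were Tap1, B2m, Vwf, Pirb, Cd4, Klrd1, Cd3d, Cd3g, Cd247, Ncr1, Prf1, Cd14 and RT1-CE10. The same holds for probes of RT1-CE11, RT1-A2, RT1-A3, RT1-T18, RT1-T24-4 and RT1-M5. The genes and lists were chosen with earlier results of these data known. Several list genes, such as Psmb8, Ubd, Aif1, Ly49i9 and Ly49si1, had been reported as regulated from the same arrays. Counts of the lists that hold them are therefore no independent evidence. Rats were left out singly, and the alternatives covered background, normalization, dye orientation, dim probes, outlier spots, slide, test, rat block, series table and probe summary; leaving out rats 8 and 10 together, or array 1 of rat 10, and the list genes or level SDs without rats 8 or 10, were chosen after seeing the data.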

Additional observations from a re-analysis of the deposited data

Results flagged for a closer look

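The ratio of each of the 8 genes differed between the 2 dye orientations of the same RNA, by limma over 12 rats. The ratio with the allogeneic sample in Cy5 minus that with it in Cy3 was -0.23 for RT1-CE1, -0.50 for RT1-CE2, -0.49 for RT1-CE3 and -0.40 for RT1-CE4. It was -0.32 for RT1-CE5, -0.57 for RT1-CE6, -0.80 for RT1-CE7 and -0.25 for RT1-CE8. Without rats 8 and 10 all 8 differences were called as well, and the one of RT1-CE7 was -0.79. Over the array, 3764 of 7249 genes had such a difference, 1691 of them in the direction of these 8 genes and 2073 in the other. With median centring in place of loess the difference was positive for 6 of the 8 genes and negative for RT1-CE6 (-0.30) and RT1-CE7 (-0.16, adjusted p 0.135, limma, no longer called).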

How the results depend on the processing

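RT1-CE3 and RT1-CE8 were called lower under each of the 28 alternatives, with means from -0.70 to -0.21 and from -0.50 to -0.25. RT1-CE1, RT1-CE2 and RT1-CE4 lost their call only where the 12 arrays that carried the allogeneic sample in Cy3 were taken alone. From these, 2 of the 8 genes were called lower, RT1-CE7 was at 0.17 (adjusted p 0.151, limma), 2071 genes were called over the array and 23 pairs of genes differed. From the 12 others, with it in Cy5, 8 of 8 genes and 2191 genes over the array were called and 10 pairs differed, 7 of them among the 15 and in the same direction. Besides, RT1-CE7 lost its call in 14 alternatives, which were the removal of 1 rat for 8 of the rats, the processed intensities and the series table (both adjusted p 0.0599), median centring (0.0774), slide as a block (0.0508), the mixed-effects ANOVA (0.0509), and leaving out array 1 of rat 10 (0.0948), and RT1-CE5 without rat 2, 7, 9 or 11. With the rat as a random replicate block over 24 arrays, 7 of the 8 genes and 1406 genes over the array were called, against 7 and 1174. Leaving out 1 rat at a time gave 5 to 7 of the 8 genes, 928 to 1746 genes, 1155 to 2087 probes and 13 to 15 pairs. The highest numbers of genes and probes came without rat 8, and without rats 8 and 10 together 1770 genes were called. With median centring 6075 genes had a dye orientation difference, against 3764. Correlations passed in 17 of 28 pairs, also without the 2 farthest rats, and in 21 without rat 8. All probes of the 8 genes stood well above background, and taking only such probes left their mean ratios unchanged. An effect of signal level on the ratios was not tested.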

Other observations

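Rat 8 departed from the other rats in opposite directions within the class I pathway. Its ratio was the highest of the 12 rats for B2m (1.69) and Pdia3 (0.84), a chaperone that assists the folding of class I molecules, and for the interferon-inducible genes Cxcl9 (1.39) and Gbp2 (0.95). It was the lowest of the 12 for Psmb8 (-0.94), Tap1 (-0.90), Psmb10 (-0.85) and RT1-CE10 (-2.56), as for 5 of the RT1-CE1 to RT1-CE8 genes. For Ly49i9 and Ly49si1, whose means were -2.28 and -1.48, rat 8 had the values nearest to 0, -0.86 and -0.04. These genes were picked after their values were seen, and no test was made on a single rat.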
